A study of Mus musculus with 4 samples.

Results

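Ankyrins and spectrins form the skeleton that lies under the axon membrane. Cytosine editing sites, used as a sign of nearby RNA methylation, were listed for mouse cortex. Those under 6 ankyrin and spectrin genes are described here. The genes were Ank1, Ank2, Ank3, Sptan1, Sptbn1 and Sptbn4, and their sites were taken by gene symbol from a list of 28412 sites under 4206 symbols. They held 223 of these sites, 0.785% of the list. Ank2 had 84 sites, Sptbn1 70, Ank3 44 and Sptan1 25, and no site was listed under Ank1 or Sptbn4. A site was thus listed for 4 of the 6 genes, against 17.6% of all annotated protein-coding symbols.

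The sites came from scDART-seq of dissociated cortex, in which the cytidine deaminase APOBEC1, fused to the m6A-binding YTH domain, converts cytosines beside N6-methyladenosine (m6A) to uracil. The cells carried APOBEC1-YTH or its control APOBEC1-YTHmut, whose YTH domain is mutated. They came from mice aged 6 to 8 weeks at the first of the tamoxifen doses, 20 mg/kg each 24 h over 5 days, and cortex was collected 7 days after dosing ended. Both genotypes and replicates 1 and 2 were pooled, and the 4 samples are sublibraries of that pool. The labels do not say what drives the transgene or in which cells. Samples, genotypes and cell types are not marked in the list, which has no replicates: no test was possible, and no value below is a difference between APOBEC1-YTH and APOBEC1-YTHmut. Each site carries a whole number, called the site count here; the list has no header to say what it counts, and its lowest value is 3. Intervals are 95% exact Clopper-Pearson intervals, which cover counting error only, and sites of a gene are not independent.

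Ankyrins are adaptors that hold ion channels and adhesion molecules of the L1 family in place and tie them to spectrin. Spectrin is built of alpha and beta chains that join with actin into a lattice beneath the membrane. In neurons, ankyrin-G (Ank3) with beta-IV spectrin (Sptbn4) organises the axon initial segment and the nodes of Ranvier, while ankyrin-B (Ank2) with beta-II spectrin (Sptbn1) serves along the axon shaft. Sptan1 encodes alpha-II spectrin, the alpha chain that pairs with the beta chains of neurons, and Ank1 encodes ankyrin-R, first known from red blood cells. Neurons also splice a very large coding exon into Ank2 and Ank3, which gives the giant forms of both proteins. In messenger RNA, m6A is known to favour the motif DRACH and the region around the stop codon.

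The sites with high counts in each gene are shown first, because they carry the largest numbers of the list for these genes. Each line gives 25 nt of the transcript from 5′ to 3′, written with T for U, on mm10 and read from the GENCODE M21 transcripts. The capitals mark 5 nt around the edited cytosine, which is their 4th base, so that the methylated adenosine would be the base before it.
Ank2 3′ UTR, count 143, chr3:126922386-126922410, minus strand: gtagcatttTAACAtatatatataa
Ank2 3′ UTR, count 132, chr3:126923703-126923727, minus strand: gcgcaggagTGACTgaagtggccta
Ank2 coding sequence of a short form, count 60, chr3:127161705-127161729, minus strand: agaaaaaaaCAACGgaaaatcccca
Ank3 3′ UTR, count 131, chr10:70025018-70025042, plus strand: aaaatggacTGACCggaaatccgta
Ank3 3′ UTR, count 50, chr10:70024533-70024557, plus strand: ctctttcacTGACTcttgtatatta
Sptbn1 3′ UTR, count 34, chr11:30100080-30100104, minus strand: ccgatttccTGACActactctccct
Sptbn1 3′ UTR, count 29, chr11:30100039-30100063, minus strand: cctgagtctTGACTtacaaatgccc
Sptbn1 coding sequence, count 27, chr11:30138736-30138760, minus strand: tggcagagtTAACAcggctaaggaa
Sptan1 coding sequence, count 7, chr2:29998219-29998243, plus strand: gctctgcgaGAACAggcccagtcat
All of these windows have A or G, then A, before the edited C, the pattern called RAC. Every listed site outside RAC had a count of 3, so sites picked for a high count could not lie outside it. The other sites among the 5 highest counts of each gene were AAACC (47) and AGACG (40) in the 3′ UTR of Ank2 and AAACT (35), AAACT (18) and AAACC (12) in the 3′ UTR of Ank3. In Sptbn1 they were CAACT (23) in the 3′ UTR and GAACA (19) in coding sequence. In Sptan1 they were AAACC (11) and AAACA (10) in noncoding exons and CAACG (5) and GAACA (5) in coding sequence. The letters TGAC stood at 5 of these 20 sites, 25.0%. Over all RAC sites TGAC stood at 21 of 166 member sites (12.65%), against 13.13% of those in the rest of the list, so it was no more frequent in these genes. Member sites in TGAC had a median count of 7, against 5 for member sites in other RAC contexts. In the rest of the list both medians were 6, with 2869 sites in TGAC. These sites were picked by their count, so their make-up is a description only.

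The genes differed in how densely they were covered. Ank2 (chromosome 3, 126921612 to 127499350, minus strand) ranked 17th of all symbols by number of sites, and Sptbn1 (chromosome 11, 30099395 to 30268175, minus strand) ranked 30th. Ank3 (chromosome 10, 69398773 to 70027438, plus strand) ranked 95th and Sptan1 (chromosome 2, 29965560 to 30031451, plus strand) 231st. The median listed symbol had 2 sites. Per kb of annotated exon the order was another, with 4.0 sites in Sptbn1, 2.40 in Ank2, 1.87 in Sptan1 and 1.26 in Ank3. That length joins the exons of all annotated transcripts, 34838 nt over 47 transcripts in Ank3 and 13362 nt over 16 in Sptan1. On the single transcript with most sites, Ank3 had 40 sites on 9963 nt and Sptan1 23 on 8018 nt. There Ank3 was the denser of the pair, so the order depends on the length used. Site counts were modest: the median was 4 for the members and 4 for the rest of the list, and the maximum was 143 for the members against 3538. Ank2 had a median count of 5 and a sum of 1027, Ank3 a median of 4 and a sum of 424, Sptbn1 a median of 3 and a sum of 429, and Sptan1 a median of 3 and a sum of 108. Counts of 100 or more were reached by 3 member sites, of 565 in the whole list, and all 3 were in ankyrin 3′ UTRs. The genes with no site, Ank1 on chromosome 8 and Sptbn4 on chromosome 7, have 17 and 7 annotated transcripts. Since the list starts at a count of 3 and holds no expression values, a gene with no methylation and a gene with little RNA cannot be told apart here.

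The ankyrin sites lay mostly in 3′ UTRs and the spectrin sites mostly in coding sequence. In Ank2, 56 of 84 sites (66.7%, interval 55.5 to 76.6) lay in a 3′ UTR and 26 (30.95%) in coding sequence. In Ank3, 31 of 44 (70.5%, interval 54.8 to 83.2) lay in a 3′ UTR and 12 (27.3%) in coding sequence. In the spectrins, 50 of 70 Sptbn1 sites (71.4%, interval 59.4 to 81.6) and 18 of 25 Sptan1 sites (72.0%, interval 50.6 to 87.9) were coding, while 17 (24.3%) and 4 (16%) lay in a 3′ UTR. The intervals of the 3′ UTR share in the ankyrins and in the spectrins did not overlap. Together the 4 genes had 48.4% of sites in 3′ UTRs and 47.5% in coding sequence, against 62.05% and 25.88% for the rest of the list. For the members the 2 shares were close and their order changed with the processing: coding sequence was ahead, with 49.1% against 45.4%, when sites within 10 nt were merged, and with 51.4% against 47.5% on the longest coding transcript. For comparison, the 4 sodium channel alpha subunits had 60.8% of 130 sites in 3′ UTRs and 4 microtubule-associated proteins 56.3% of 268. The spread inside each set was wide: 92.9% in Scn1a and 39.7% in Scn2a, 90.0% in Mapt and 2.94% in Map1a.

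**Figure D1:**
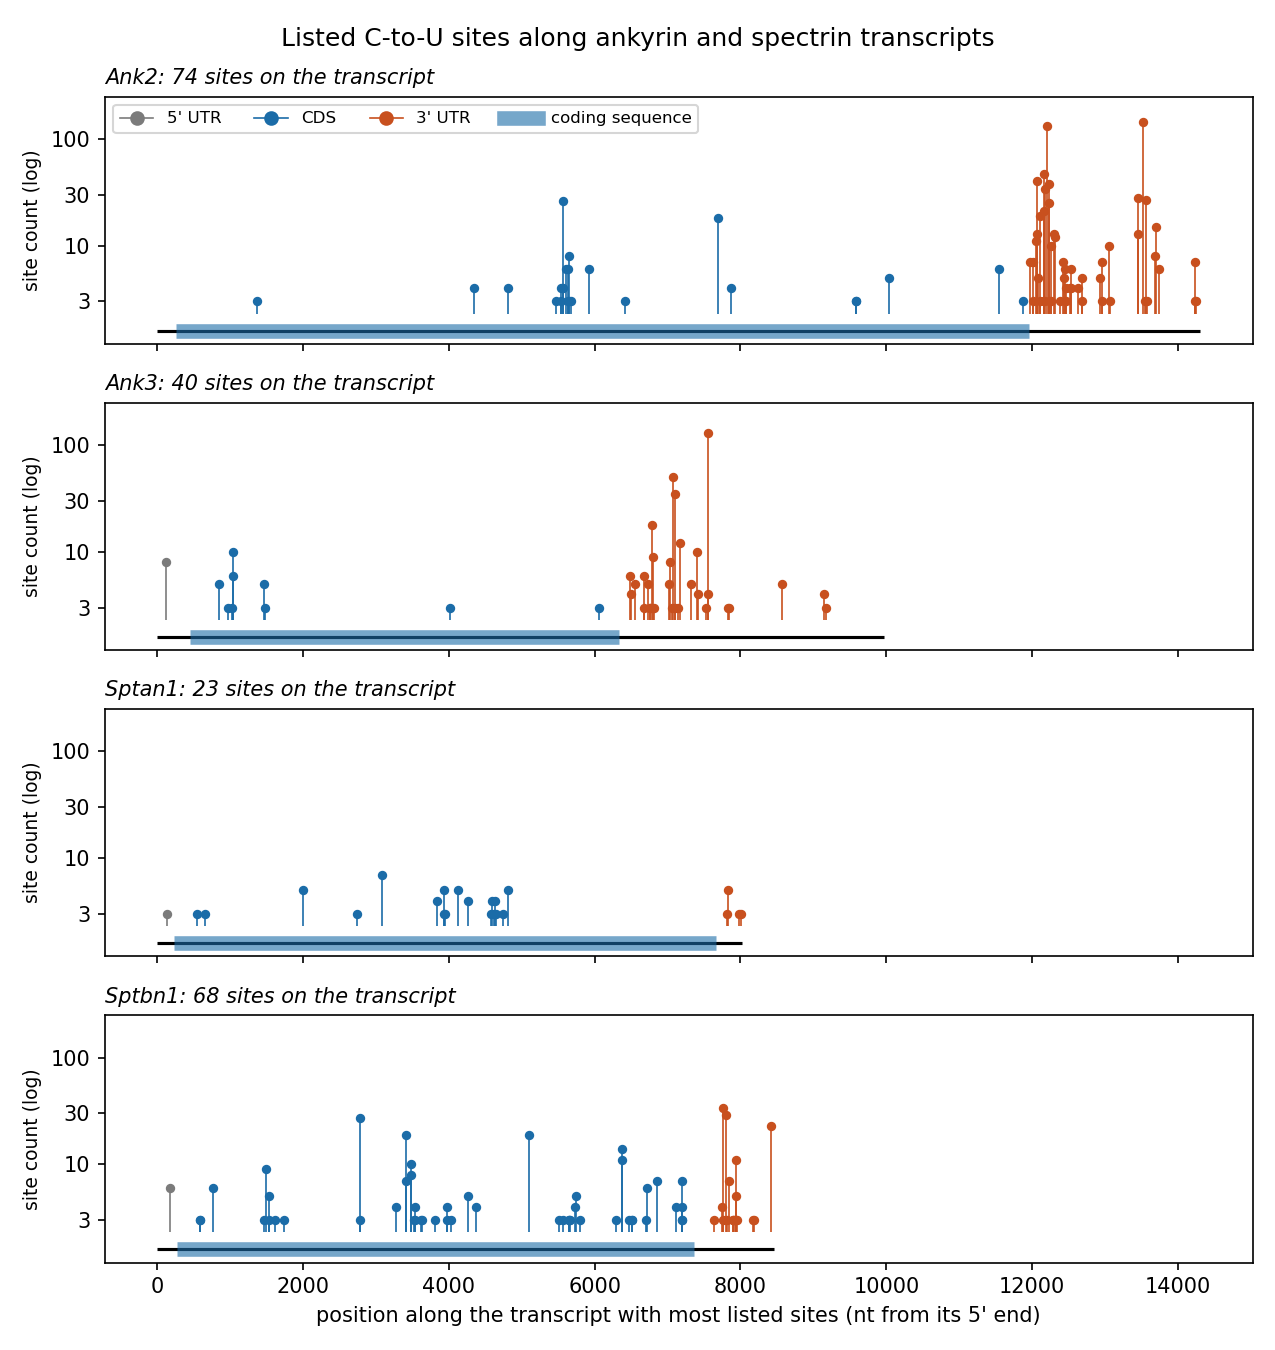
Listed sites of Ank2, Ank3, Sptan1 and Sptbn1 along the annotated transcript that holds most of the gene's sites. The horizontal axis is the position along the transcript in nt, the vertical axis is the site count on a log scale, and each stem is a site. Counts of 131 to 143 stand in the ankyrin 3′ UTRs. Most sites of Sptan1 and Sptbn1 lie in the coding sequence, but not evenly. The end of the Sptan1 coding sequence holds none, and the highest count of Sptbn1 stands in its 3′ UTR.

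To allow for how many sites each region could hold, the listed sites were set against all RAC cytosines of the transcript with most sites. In the 3′ UTR of Ank2, 38 of 70 RAC cytosines were listed, 54.3% (interval 41.9 to 66.3), against 17 of 406, 4.19% (2.46 to 6.62), in its coding sequence. In Ank3 the shares were 25 of 104 in the 3′ UTR, 24.0% (16.2 to 33.4), and 7 of 217 in coding sequence, 3.23% (1.31 to 6.53). Sptbn1 had the highest coding share, 34 of 241 or 14.1% (9.97 to 19.2), and still a higher one in its 3′ UTR, 11 of 27 or 40.7% (22.4 to 61.2). In Sptan1 the shares were 2 of 8 in the 3′ UTR, 25.0% (3.19 to 65.1), and 15 of 251 in coding sequence, 5.98% (3.38 to 9.67). Measured in this way all 4 genes had the higher share in the 3′ UTR, although in Sptan1 the intervals overlapped. The transcript was picked by its listed sites, after the data were seen, so the measure is not independent of them. In Ank2, Ank3 and Sptan1 the longest coding transcript gave the same shares, but in Sptbn1 it did not. On the longest coding transcript of Sptbn1, which ends in another exon, 0 of 42 RAC cytosines of the 3′ UTR and 28 of 226 of the coding sequence were listed, which turns the order round for that gene. The 3′ UTRs of the spectrins hold few RAC cytosines, 8 in Sptan1 and 27 in Sptbn1, and those of the ankyrins more, 70 in Ank2 and 104 in Ank3. On the longest coding transcripts the members had 6.09% of coding and 29.0% of 3′ UTR RAC cytosines listed, against 2.40% and 5.42% for the other genes with a site, most of which have few sites. The coding shares of Sptbn1 and Sptan1, whose chains pair in the same tetramer, had intervals that did not overlap. They did overlap on the longest coding transcript, where the Sptbn1 share was 12.4% (8.39 to 17.4), and at a count of 4 or more, where the shares were 9.54% (6.15 to 13.98) in Sptbn1 and 3.59% (1.65 to 6.70) in Sptan1.

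**Figure D2:**
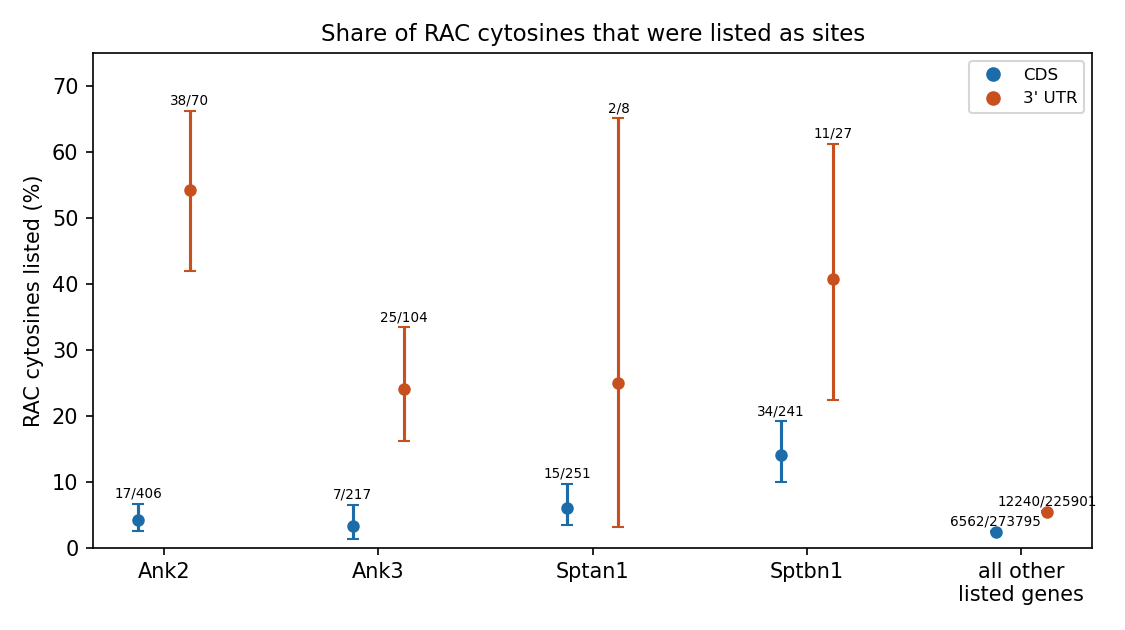
Percent of RAC cytosines that are listed as sites, by coding sequence and 3′ UTR, for the 4 genes on the transcript with most sites and for the other genes with a site on their longest coding transcript, so the choice of transcript differs between them. Bars on the points are 95% exact intervals for counting error; the 3′ UTR of Ank2 is highest at 54.3%, and the coding sequence of Sptbn1 at 14.1% is above that of the other 3 genes.

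Within the 3′ UTRs the sites were crowded. Ank2 had 16 sites between 97 and 294 nt after the stop codon, the most in any 200 nt of its transcript, with counts up to 132, and its site of count 143 lay farther out, 1559 nt after the stop codon. Ank3 had 8 sites between 336 and 474 nt after the stop codon, and its highest count, 131, lay at 1219 nt. Sptbn1 had 13 sites between 392 and 588 nt after the stop codon, among them its 2 highest counts. Several of the sites in these stretches of Ank2 and Sptbn1 lay outside RAC, all with the lowest count, 3. Sptan1 had its densest 200 nt in coding sequence, with 6 sites at −3088 to −2921 nt, where negative values lie before the stop codon. The site nearest the stop codon lay 9 nt after it in Ank2 (count 7), 151 nt after it in Ank3 (count 6), 153 nt after it in Sptan1 (count 3) and at −157 nt in Sptbn1 (count 3), all on the transcript with most sites. On the longest coding transcript of Sptbn1, which has another stop codon, the nearest site lay at −254 nt (count 3). Within 400 nt of the stop codon, on either side, lay 23 of 74 placed sites of Ank2 (31.1%), 6 of 40 of Ank3 (15.0%), 4 of 23 of Sptan1 (17.4%) and 5 of 42 of Sptbn1 (11.9%), all on the longest coding transcript. For the members together the share was 21.2% (interval 15.5 to 27.95), against 30.4% in the rest of the list.

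The coding sites were not spread evenly either. The coding sequence was divided into 5 equal parts from the start codon. In Ank3, 7 of 9 placed sites fell in part 1, at the end of the protein where the membrane-binding repeats lie, and a stretch of 2530 nt held none. Sptan1 had 11 of 18 in part 3 and none in part 5, where 53 RAC cytosines stand, so that its final 2858 coding nt before the stop codon carried no listed site. Sptbn1 had 8, 3, 16, 9 and 14 sites in parts 1 to 5, and its longest coding stretch without a site was 1033 nt. In Ank2, 13 of 23 fell in part 3, which lies in the giant exon.

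Ank2 and Ank3 both have a giant exon, with many listed sites in Ank2 and few in Ank3. In Ank2 it is exon 37 of 46 (chromosome 3, 126941610 to 126947807), 6198 nt long, and it held 19 of the 26 coding sites, 73.1% (interval 52.2 to 88.4), with 47.6% of the annotated coding length and 48.4% of the coding RAC cytosines. Of its RAC cytosines 14 of 217 were listed, 6.45% (3.57 to 10.6), against 5 of 231, 2.17% (0.707 to 4.98), in the rest of the coding sequence, and these intervals overlapped. In Ank3 the giant exon (chromosome 10, 69986089 to 69993762) is annotated in an incomplete transcript, is 7674 nt long and holds 53.2% of the annotated coding length. It had 3 of the 12 coding sites, 25.0% (interval 5.49 to 57.2), with counts of 5, 4 and 3. Of its RAC cytosines 3 of 280 were listed, 1.07% (0.222 to 3.10), against 7 of 236, 2.97% (1.2 to 6.02), in the rest of the coding sequence, again with overlapping intervals. The intervals of the listed share of the 2 giant exons, Ank2 and Ank3, did not overlap. At a count of 4 or more, the shares were 5.07% (2.56 to 8.89) in Ank2 and 0.714% (0.0866 to 2.56) in Ank3, whose bounds met. How often neurons of this cortex use either exon is not in the list, so a difference in methylation and a difference in exon use cannot be told apart.

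Inside the giant exon of Ank2, 10 of the 19 sites fell between nt 1046 and 1225 of the exon, and 3 of them were spaced by exactly 36 nt, at nt 1149, 1185 and 1221. Those at nt 1046, 1208 and 1225 lay outside RAC, each with a count of 3. Ankyrin-B's giant exon is known for a stretch of short tandem repeats. In the stretch from nt 1019 to 1234, 94 of 180 bases (52.2%) were the same as the base 36 nt further on, against 31.7% at a shift of 33 nt and 27.8% at 39 nt. This stretch was chosen as the one most like itself, and over the whole exon the same comparisons gave 28.6%, 28.1% and 27.98%. The same search in the giant exon of Ank3 gave a best stretch with 80 of 180 bases (44.4%) the same at 36 nt, against 28.9% at 33 nt and 30.6% at 39 nt, and 0 of its 3 listed sites lay in it. Choosing the stretch thus raises the value by itself. The 3 sites at this spacing and the other 3 sites in GAACG are shown because the highest counts of the exon are among them, and the first 3 lines show the bases around these evenly spaced sites. The last line is the site of highest count in the Ank3 giant exon.
Ank2 giant exon nt 1149, count 26, chr3:126946647-126946671, minus strand: gccaaaaccGAACGgcattcaccag
Ank2 giant exon nt 1185, count 6, chr3:126946611-126946635, minus strand: aaacccgagAAACActcacctggtt
Ank2 giant exon nt 1221, count 8, chr3:126946575-126946599, minus strand: aaaaatgaaAGACAttcccctgtgt
Ank2 giant exon nt 1251, count 3, chr3:126946545-126946569, minus strand: ctaaaaacaGAACGacacacacccg
Ank2 giant exon nt 1500, count 6, chr3:126946296-126946320, minus strand: tccaaaaccGAACGaattgaggaga
Ank2 giant exon nt 3263, count 18, chr3:126944533-126944557, minus strand: tgactctgaGAACGgggagaagaag
Ank3 giant exon nt 3560, count 5, chr10:69989636-69989660, plus strand: cagccctgaGAACAgggtccctacc
The 2 highest counts of the Ank2 giant exon, 26 and 18, were both in GAACG. This context has G after the edited base and is therefore not DRACH, which asks for A, C or T there.

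**Figure D3:**
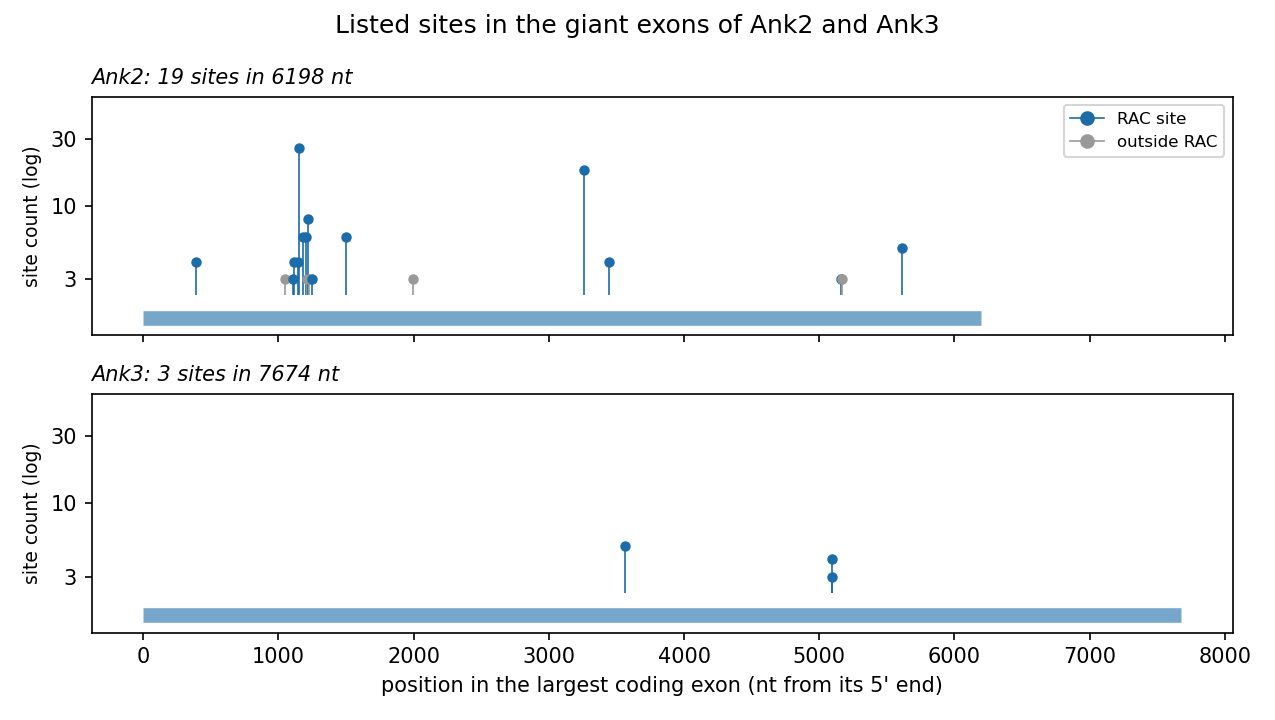
Listed sites in the giant coding exon of Ank2 and of Ank3. The horizontal axis is the position in the exon in nt and the vertical axis the site count; the Ank2 exon shows 19 sites with a cluster between nt 1046 and 1225, and the Ank3 exon shows 3.

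The base after the edited cytosine also differed between parts of Ank2. Among its RAC sites, G followed the cytosine in 9 of 19 coding sites (47.4%, interval 24.5 to 71.1) and in 3 of 42 sites of the 3′ UTR (7.14%, interval 1.5 to 19.5). DRACH accounted for 36.8% of the RAC sites in its coding sequence and for 83.3% in its 3′ UTR. In Ank3 G followed the cytosine in 4 of 10 coding RAC sites, against 4 of 26 in the 3′ UTR. The same values were 7 of 34 against 0 of 11 in Sptbn1 and 3 of 15 against 0 of 2 in Sptan1. Whether G is also rarer after the unlisted RAC cytosines of 3′ UTRs was not tested. Over all member RAC sites the share with G after the cytosine was 19.3% (interval 13.6 to 26.1), against 15.3% in the rest of the list. RAC held 166 of the 223 member sites (74.4%), against 77.8% in the rest, and DRACH 114 (51.1%, interval 44.4 to 57.9), against 55.3%. The commonest context was AAACA, with 21 sites, 12.65% of member RAC sites against 13.95% elsewhere. GGACA, with 11 sites, made up 6.63% of member RAC sites against 2.54% elsewhere, and 4 of its sites were in Ank2 and 5 in Sptbn1. It was singled out from many contexts, so its share is a description only. The 57 member sites outside RAC all had the lowest count, 3, as did all 6239 outside RAC in the rest of the list. Of the member sites 33 (57.9%, interval 44.1 to 70.9) lay within 10 nt of a listed RAC site, against 67.8% in the rest. They lay downstream in 29 cases and upstream in 4, against 2465 and 1764 in the rest.

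Several sites lay in alternative starts and ends of the genes. In Ank2, 3 sites with counts of 60, 10 and 3 lay within 28 nt of each other in the first exon of a short form that starts inside the gene (chromosome 3, 127161679 to 127162346). The last exon of this form (127031173 to 127032313) held 6 sites with counts up to 9. Of these, 5 lay in its 3′ UTR and 1 in coding sequence shared with a long form. The last exon shared by the long forms held 51 sites, with a median of 6. A site under Gm16958, an antisense gene, lay on the opposite strand within the same first exon, at 127161817, with a count of 7; how strand was assigned is not stated, and reads of the 2 genes cannot be told apart here. In Sptbn1 the last exon of the form with most sites (chromosome 11, 30099395 to 30100714) held 21 sites. The 2368 nt last exon of the longest annotated form (30106785 to 30109152), whose product is the shorter protein without the C-terminal pleckstrin homology domain, held none, though it contains 49 RAC cytosines; its first bases are shared with an internal exon of the other form. In Sptan1 the 2 highest counts, 11 and 10, lay only in exons of a retained-intron transcript, 81 and 202 nt from the nearest exon of a coding form.

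Of 30 other genes of the axon membrane network, chosen by function, 27 had a site, against 17.6% of protein-coding symbols. The list was not matched to other genes in length or expression. Every one of the 10 membrane proteins that ankyrins hold had sites, with a median of 16.5: the sodium channels Scn2a (68) and Scn8a (42) had the most, followed by the adhesion molecule Nrcam (31) and the potassium channel Kcnq3 (30). All 10 actin-side partners had sites too, with a median of 7.5, led by Epb41l1 and Tmod2 with 30 each; Epb41l1 encodes a protein 4.1, which fixes spectrin to actin, and Tmod2 a cap of actin filaments. Of these, Epb41l1 and Epb41l3 had all their sites, 30 and 13, in 3′ UTRs, whereas 9 of 11 sites of the adducin gene Add2 were coding. Among the 4 nodal and paranodal genes Cntn1 had 42 sites, Cntnap2 4, Cntnap1 2 and Cntn2 1. Of 6 microtubule-side partners 3 had sites, and all 12 of Camsap2, which encodes a protein that binds microtubule minus ends, were coding. Among cell type markers, 5 of 6 excitatory neuron markers, 3 of 4 pan-neuronal, 5 of 6 astrocyte, 6 of 6 oligodendrocyte and 6 of 6 endothelial markers had at least 1, and 2 of 6 inhibitory neuron and 2 of 6 microglial markers. The list thus holds marker genes of other cell types beside those of neurons, and the cell type in which a member site was found is not known.

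**Figure D4:**
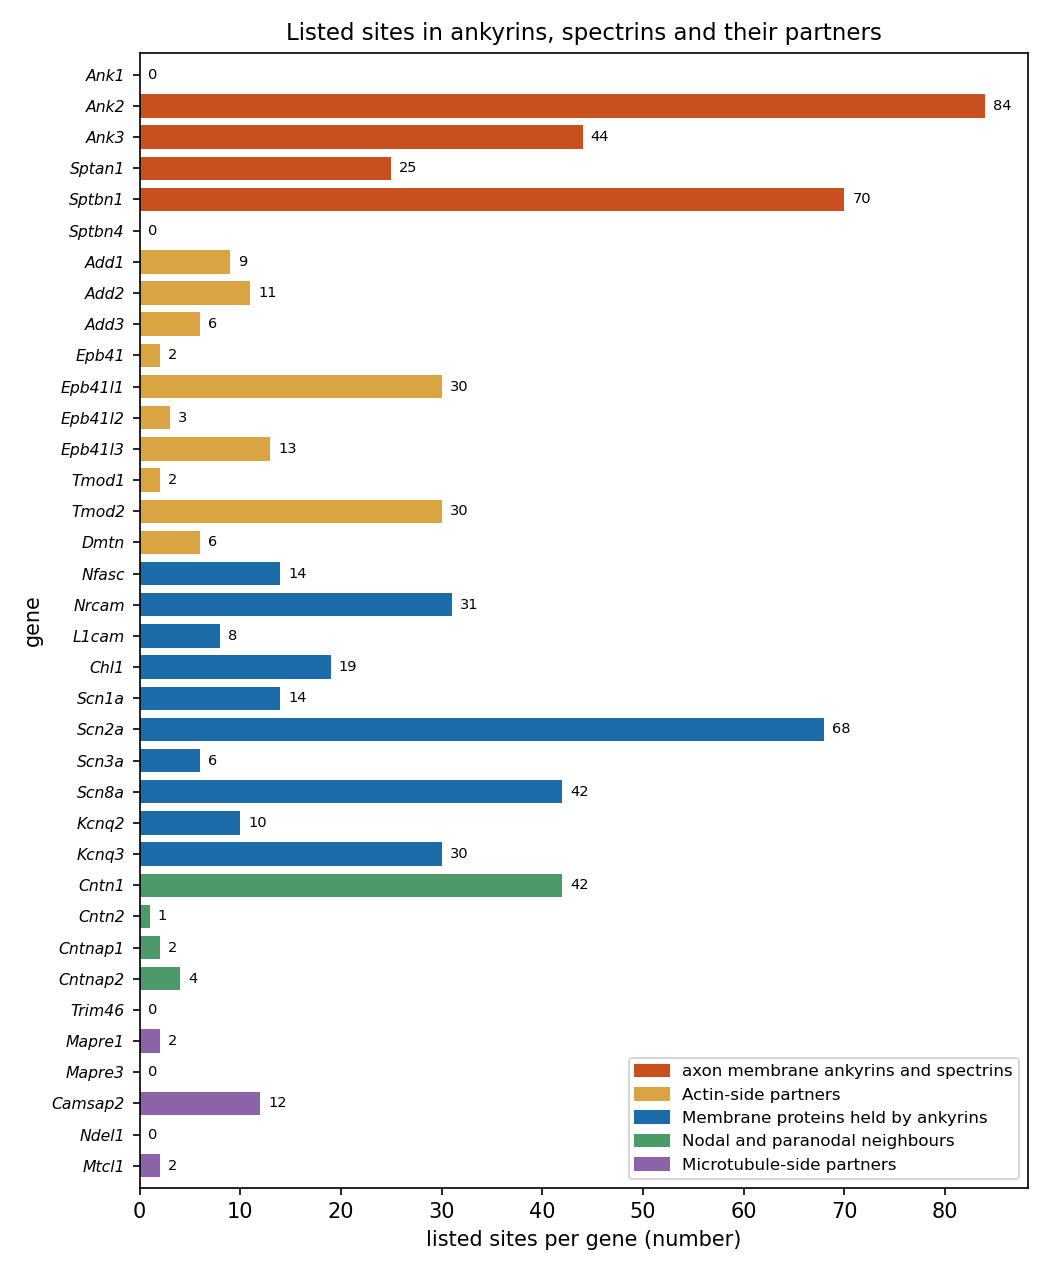
Number of listed sites in the ankyrin and spectrin genes and in 30 other genes of the axon membrane network, grouped by role. The horizontal axis is the number of sites; Ank2 with 84 and Sptbn1 with 70 have the most, Scn2a with 68 is next, and Ank1 and Sptbn4 stand at 0.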

How the data were processed

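Cortical cells from a pool of APOBEC1-YTH and APOBEC1-YTHmut mice were profiled in 4 sublibraries. The submitters' processing notes name STAR 2.7.5 and mm10, and per the series text Bullseye was used to find editing sites. The authors deposited 1 list that gives every site a position, a strand, a symbol and a whole-number count; the count was used as deposited, without normalization. The sources used here do not give the filters, the use of the mutant control or the read depth. Sorted neuronal nuclei in the series text were not analysed here. No column of per-sample values was set aside (0).

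Sites were placed on GENCODE M21 transcripts, with 1-based coordinates, by gene symbol and strand. All 223 member sites matched and had a C with a 5 nt context. A site that transcripts place differently was called 3′ UTR first, then coding, 5′ UTR, noncoding exon and intron. RAC is A or G, then A, then the edited C; DRACH is RAC that has any base but C ahead of it and any base but G behind it. Python 3.11.15, SciPy 1.17.1 and matplotlib 3.10.9 were used. Placement was tested on simulated positions, with 4991 of 5000 regions and 5000 of 5000 positions along the transcript recovered. A separate check of the motif rule was right in 5000 of 5000 cases. The reading of contexts from the transcripts is not among these checks. Named are all 6 genes, the 5 sites of each with the highest count, the site nearest the stop codon and, in the text or the plot of sites per gene, every network gene, except that some genes of these lists are not reported here; the other sites and exons named were chosen after their values were seen. The members and lists were chosen with earlier results of these data known. Alternatives were a count of at least 4, merging of sites within 10 nt, coding sequence before 3′ UTR, a window of 200 nt at the stop codon, RAC sites only and another transcript. The 4 sublibraries may be technical splits, and no p-value was computed.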

Additional observations from a re-analysis of the deposited data

How the results depend on the processing

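No paired analysis was possible because sites carry no group or replicate, and for the same reason no sublibrary could be left out. Keeping only sites with a count of 4 or more left 124 sites in the members, 54 in Ank2, 27 in Ank3, 12 in Sptan1 and 31 in Sptbn1. It also changed the DRACH share to 70.2%, against 68.7% among RAC sites only, and the listed share of coding RAC cytosines to 4.0%. All 57 member sites outside RAC had a count of 3, so a cut at 4 removes every one of them. The rise of the DRACH share from 51.1% is thus mostly that of keeping RAC sites only. Within 200 nt of the stop codon lay 8.94% of member sites. The transcript with most sites, an alternative chosen after seeing the data, gave 36.4% of 3′ UTR RAC cytosines listed in the members. On the longest coding transcript Sptbn1 had 0% of its sites in the 3′ UTR and 100% in coding sequence. The other 34 values of the main comparisons and 46 others stayed within their counting intervals or within 1.5 times the count. The order of the members' 3′ UTR and coding shares did turn round with sites merged (45.4% and 49.1%), with coding sequence called before 3′ UTR (47.5% and 48.4%) and on the longest coding transcript (47.5% and 51.4%). Depth per site is unknown, and its part in any site that is not listed was not tested.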

Other observations

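Within the bounds of Ank2 the list held 12 sites under 6 other gene symbols, and the bounds of the other 5 genes held none. Of these, 11 lay on the strand of Ank2 in its annotated introns, under the symbols Gm43322, Gm43765, Gm42973, Gm42972 and Gm42971, which the annotation keeps in the class still to be experimentally verified. Gm43322 had 5 sites, with counts up to 21. Whether these reads came from the Ank2 transcript was not tested.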
